A study of Mus musculus with 18 samples.

Results

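Ovaries of mice with an excess of luteinizing hormone (LH) were compared between 2 genetic backgrounds at the stage when both had become cystic. The 4 arrays compared, of 18 in all, were chosen by their sample titles. They hold LHCTP transgenic ovary RNA of the CF-1 strain and of the CF-1xC57BL/6 F1 hybrid, both at 2 months of age. Each was read on 1 array of chip type A and 1 of chip type B. The labels describe both ovaries as cystic. At 5 months they describe the transgenic ovary as a granulosa cell tumour in CF-1 and as a luteoma in the hybrid, so the 2-month pair asks what differed between the strains before the lesions parted. For comparison the series holds wild-type ovaries of both strains at 2 and 5 months, both transgenic lesions of 5 months, and a CF-1 transgenic ovary of 5 months given human chorionic gonadotropin (hCG), described as a luteoma. The hybrid and CF-1 ovaries of the cystic pair carry the same transgene, and the labels name no other allele, no number of animals and no pooling. They also do not say whether the chip A and chip B arrays of a condition received the same RNA.

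LH is the pituitary hormone that acts on theca, luteal and mature granulosa cells to drive steroid synthesis, ovulation and the change of a follicle into a corpus luteum. The LHCTP hormone is a long-lived form of LH made by pituitary gonadotropes under a gonadotropin alpha subunit promoter, so the ovary is exposed to it throughout life and the transgene itself is not read out in the ovary. A granulosa cell tumour grows from the cells that surround the oocyte, whereas a luteoma is built of steroid-producing cells that resemble those of the corpus luteum.

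With 1 array a side there is no spread between animals and no test. Values below are scaled intensities in units, comparable within a probe set and chip type only. Differences are hybrid minus CF-1 on a log2 scale after low values were raised to a floor of 183.8 units on chip A and 290.7 units on chip B. A probe set was measured when it reached 2 floors on at least 2 of the 9 arrays of its chip type, which held for 6408 probe sets. It was counted as differing when the floored values were at least 3-fold apart and the brighter one reached 2 floors. Folds against an array under the floor use the floor and are lower bounds, written "at least". A lower level in whole tissue can come from fewer cells of a type or from less RNA per cell, and these cannot be told apart.

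Both samples read as ovary. The oocyte genes Zp2 and Gdf9 stood at 2108 and 3312 units in the hybrid and at 2085 and 3622 units in CF-1. Amh, a hormone of granulosa cells in growing follicles, stood at 3913 units in the hybrid and 2916 units in CF-1, and the theca enzyme gene Cyp17a1 at 6703 and 5915 units. The oviduct glycoprotein gene Ovgp1, at 9714 units in the hybrid and 10829 units in CF-1, and hemoglobin genes were also present in both, so RNA of oviduct-type epithelium and of blood was read in both samples as well. The mast cell protease gene Cma1 lay under the floor in both.

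Before scaling, trimmed mean intensities ran from 542 to 1756 units over the 18 arrays, and 5' to 3' signal ratios from 0.337 to 0.668 for actin and from 0.743 to 1.28 for Gapdh. The strains' cystic ovaries resembled each other closely, with 80.4% of the measured probe sets within 1.5-fold and a median difference of -0.02. Against this, 40 probe sets were at least 3-fold higher in the hybrid, which is 0.624% of those measured, and 53 were at least 3-fold lower, or 0.827%, together 1.45%. The same rule marked 0.968% of the probe sets between the wild types of 2 months, 3.34% between those of 5 months and 5.48% between the lesions. Without scaling of the arrays the same rule gave 18 higher and 121 lower, so the balance of the directions rests on the scaling. The dimmer array lay under the floor for 19 of the 40 and 31 of the 53, and both arrays reached the detection limit of 2 floors for 12 and 10. Among the 93, 63 carried a single gene symbol and 30 stay unnamed. Just inside the rule lay Arhgef1, at 554 units in the hybrid and 70.0 in CF-1, and Opn1mw, at 215 and 647 units. Just outside lay Ahsg, at 542 units in the hybrid and 183 in CF-1, and Enah, at 209 and 622 units.

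**Figure D1:**
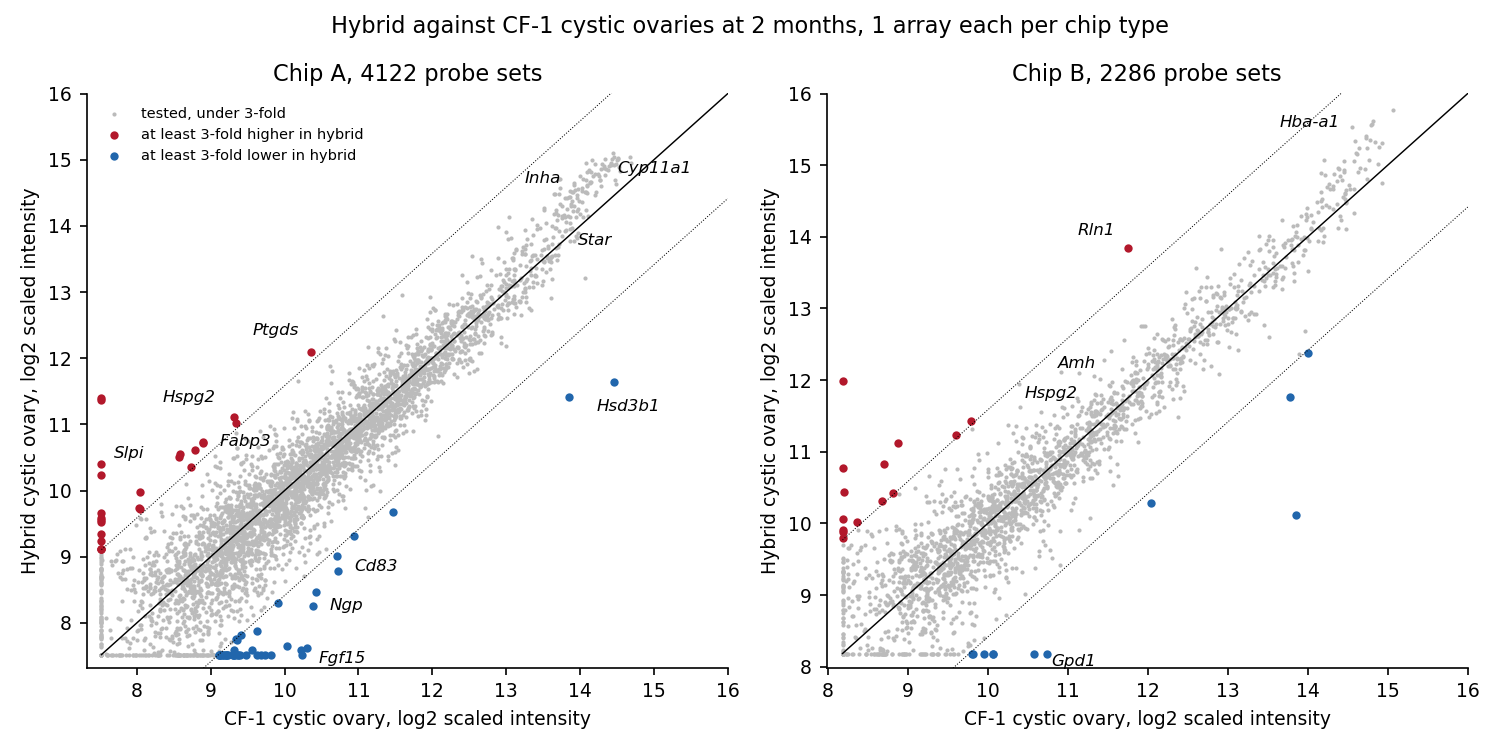
Scaled intensity in the hybrid cystic ovary (vertical, log2) against the CF-1 cystic ovary (horizontal, log2) for 4122 measured probe sets of chip A and 2286 of chip B, each point 1 probe set on 1 array a side. Solid lines mark equality and dotted lines 3-fold, with 40 probe sets past the upper line in red and 53 past the lower line in blue, many of them at the floor of the dimmer array. Rln1, Ptgds and Hsd3b1 stand apart at high intensity, and the upper end of both clouds lies above equality.

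The 3 named genes that differed at high intensity were Rln1 and Ptgds, higher in the hybrid, and Hsd3b1, lower. Relaxin, the product of Rln1, is a peptide hormone of the corpus luteum. Ptgds encodes the lipocalin-type prostaglandin D synthase, and Hsd3b1 encodes the 3beta-hydroxysteroid dehydrogenase that turns pregnenolone into progesterone in ovary and adrenal. The 250 bases upstream of their start sites are shown because these are the named genes that differed at high intensity. They come from RefSeq (GRCm38.p6), at chr19:29334671-29334920, chr2:25469750-25469999 and chr3:98859795-98860044, all on the minus strand. Capitals mark a match to TATAAA or CCAAT on either strand.
Rln1: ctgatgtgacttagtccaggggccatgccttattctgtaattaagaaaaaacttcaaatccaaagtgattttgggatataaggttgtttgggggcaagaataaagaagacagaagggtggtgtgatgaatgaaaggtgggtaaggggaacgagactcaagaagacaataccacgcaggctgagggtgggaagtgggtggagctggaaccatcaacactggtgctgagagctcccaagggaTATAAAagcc
Ptgds: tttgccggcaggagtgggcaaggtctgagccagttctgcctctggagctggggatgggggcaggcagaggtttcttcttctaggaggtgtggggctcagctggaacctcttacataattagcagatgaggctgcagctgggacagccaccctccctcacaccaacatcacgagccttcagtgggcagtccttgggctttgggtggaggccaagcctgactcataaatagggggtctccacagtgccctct
Hsd3b1: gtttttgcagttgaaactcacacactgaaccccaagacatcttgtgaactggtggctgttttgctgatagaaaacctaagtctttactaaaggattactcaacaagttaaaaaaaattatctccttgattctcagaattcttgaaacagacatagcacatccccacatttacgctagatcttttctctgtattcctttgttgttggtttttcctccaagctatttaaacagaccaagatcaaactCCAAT
The Rln1 window holds TATAAA, 10 to 5 bases upstream of the start, and the Hsd3b1 window CCAAT, 5 to 1 bases upstream. The Ptgds window held neither, and none of the 3 held the nuclear receptor half-site AGGTCA or the cyclic AMP half-site TGACG. Among 32851 RefSeq promoter windows of this length, 12.4% held TATAAA, 33.8% CCAAT, 14.02% AGGTCA and 17.8% TGACG. The motifs do not overlap each other in these windows.

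Rln1 stood at 14761 units in the hybrid cystic ovary and 3450 units in the CF-1 cystic ovary, a 4.28-fold difference. Both wild-type ovaries of 2 months lay under the floor, at 117 units in the hybrid and 38.6 in CF-1. Relaxin signal was therefore measured in the cystic ovaries of both strains, and the strain difference was one of amount. At 5 months it stood at 16825 units in the hybrid luteoma, 21.8 in the CF-1 tumour and 359 in the hCG-treated CF-1 ovary.

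Ptgds stood at 4392 units in the hybrid cystic ovary and 1317 units in the CF-1 cystic ovary, 3.33-fold apart. The wild-type ovaries of 2 months showed the same order, with 669 units in the hybrid and 61.3 in CF-1, the second under the floor. At 5 months the order of the wild types was turned, with 76.8 units in the hybrid and 773 in CF-1. The hybrid luteoma reached 14122 units, against 1653 in the hCG-treated CF-1 ovary and a value below 0 in the CF-1 tumour.

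Hsd3b1 stood at 3209 units in the hybrid cystic ovary and at 22428 units in the CF-1 cystic ovary, 6.99-fold lower in the hybrid. In CF-1 it read nearly alike in the wild-type ovary of 2 months, at 21960 units, and in that of 5 months, at 22977 units. In the hybrid wild types it read 16167 units at 2 months and 3612 units at 5 months. Both lesions of 5 months were low, with 1664 units in the luteoma and 1150 in the tumour, while the hCG-treated CF-1 ovary read 39329 units. Under quantile normalization the difference in the cystic pair was -2.89, against -2.81. Hsd3b1 belongs to a family of closely similar genes, as do the hemoglobin and ribosomal genes below, and a probe set may not separate such copies.

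The rest of the steroid pathway did not share that difference. Among 6 measured steroid synthesis genes 4 were higher and 2 lower in the hybrid, and Hsd3b1 alone passed 3-fold. Star, which carries cholesterol into the mitochondrion, stood at 17509 units in the hybrid and 13159 in CF-1. Cyp11a1, the side-chain cleavage enzyme, stood at 29690 and 19877 units, and its electron donor Fdx1 at 33634 and 22511 units. Their differences of 0.41, 0.58 and 0.58 shrank to 0.08 for Star, 0.07 for Cyp11a1 and 0.15 for Fdx1 under quantile normalization. The list median went from 0.30 to 0.07. Quantile normalization gives all arrays of a chip type the same set of values. A shift shared by the brightest probe sets therefore shrinks by construction. Hsd17b1, which converts estrone to estradiol, read 4288 units in the hybrid and 4500 in CF-1.

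**Figure D2:**
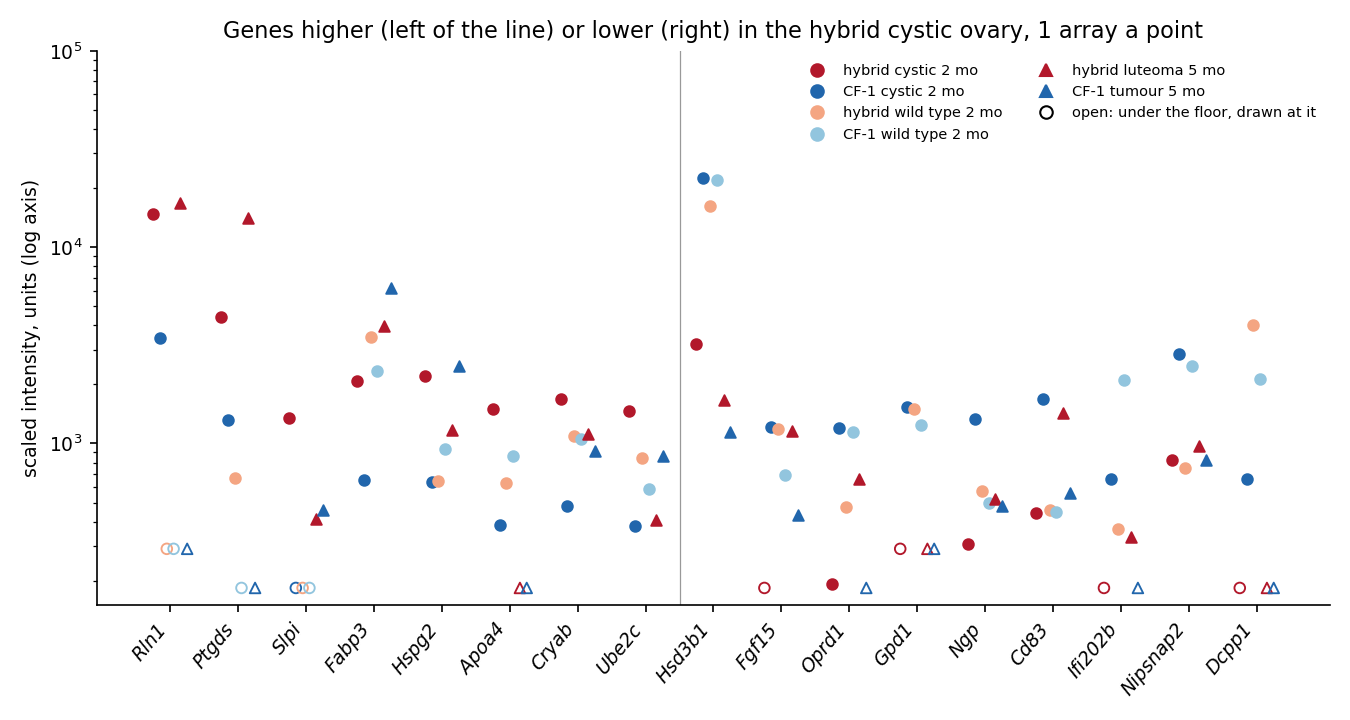
Scaled intensity (vertical, log axis) of 17 genes past 3-fold in the cystic pair, 1 array a point. Circles are 2-month ovaries and triangles the 5-month lesions, reds hybrid and blues CF-1, with open marks for arrays under the floor. Rln1 and Ptgds are bright in the hybrid cystic ovary and luteoma, and Hsd3b1 reads 3209 units in the hybrid cystic ovary against 16167 to 22428 in the other 2-month ovaries.

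After scaling, bright probe sets as a class were higher in the hybrid. The scaling factors were 1.32 for the hybrid and 0.937 for CF-1 on chip A, and 1.337 and 1.340 on chip B. On chip A scaling thus raised the hybrid values relative to CF-1. The highest values before scaling were 26530 units in the hybrid and 28306 in CF-1 on chip A, and 41833 and 25652.5 units on chip B. On chip A, the 91 probe sets with a mean log2 intensity over 14 had a median difference of 0.51, and on chip B 82 such probe sets had 0.32. The same bins in the wild-type pair of 2 months gave -0.14 over 67 and -0.28 over 70 probe sets. The differences of 0.58 for Cyp11a1 and Fdx1, which fall in the chip A class, lie near its median, whereas Star falls in the next lower bin, whose median was 0.13. The part of the intensity class, or of the scaling, in these genes was not tested. Hsd3b1 runs against this shift, and Rln1 kept a difference of 1.93 after quantile normalization, from 2.10.

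**Figure D3:**
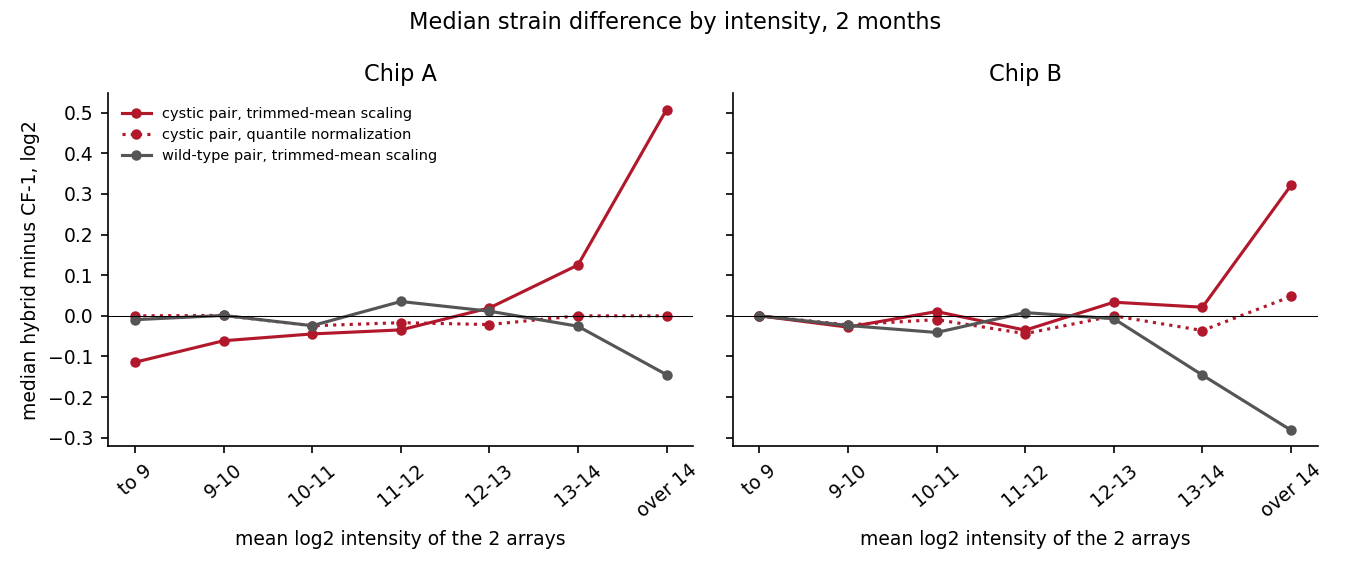
Median hybrid minus CF-1 difference (vertical, log2) by the mean log2 intensity of the 2 arrays (horizontal, bins of at least 20 probe sets), for the cystic pair in red and the wild-type pair of 2 months in grey. In the brightest bin of chip A the cystic pair reaches 0.51 with trimmed-mean scaling, and in that of chip B 0.32. Quantile normalization (dotted) gives 0 and 0.05, near 0 by construction.

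The genes at least 3-fold higher in the hybrid included 3 that carry lipids. Fabp3, a fatty acid binding protein of muscle and other fat-burning tissue, stood at 2081 units in the hybrid and 650 in CF-1. Apoa4, an apolipoprotein, stood at 1502 and 385 units. Slc27a1, a fatty acid transporter, stood at 945 units in the hybrid and 258 in CF-1 on chip B, at least 3.25-fold, and was also higher on chip A, at 1595 and 917 units. Cd36, another fatty acid transporter, was under 3-fold and ran the other way, at 1005 units in the hybrid and 1720 in CF-1. For Fabp3 the CF-1 cystic ovary was the lowest of the 9 conditions, since the wild-type ovaries read 3474 units in the hybrid and 2337 in CF-1.

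Secreted and surface proteins formed another portion. Slpi, a secreted inhibitor of leukocyte proteases made by epithelia and macrophages, stood at 1347 units in the hybrid and 99.7 in CF-1, at least 7.33-fold higher. It lay under the floor in both wild-type ovaries of 2 months and between 411 and 724 units at 5 months. Hspg2, which encodes the basement membrane proteoglycan perlecan, stood at 2212 and 635 units on chip A, but at 2997 and 2594 units on chip B. Msln, the mesothelial and surface epithelial protein mesothelin, stood at 740 units in the hybrid and below 0 in CF-1, with the reverse order in the wild types, below 0 and at 375 units. Nectin2, a cell adhesion molecule, stood at 1314 and 425 units, and Acp5, the tartrate-resistant acid phosphatase of osteoclasts and some macrophages, at 847 and 264 units. Scgb1a1, the club cell secretoglobin, stood at 1065 units in the hybrid and below 0 in CF-1 on chip B, while a chip A probe set read 495 and 677 units, the other way.

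Among the genes that act inside the cell, Cryab, a small heat shock protein, stood at 1686 units in the hybrid and 478 in CF-1 on chip A, and at 907 and 758 units on chip B. Ube2c, a ubiquitin conjugating enzyme of mitosis, stood at 1458 and 380 units. The cell cycle list as a whole did not go with it, as 9 of its 23 measured genes were higher, 14 were lower and none passed 3-fold. Purb, a single-stranded nucleic acid binding regulator, stood at 1574 and 443 units, and was in the same order in the wild types, at 1206 and 328 units. Crip2, a LIM domain protein, stood at 1695 and 475 units, and the kinase gene Map3k11 at 1012 and 264 units.

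Some of the largest folds on the higher side were not matched by another probe set or by the wild types, or rested on a single low array. Kmt5c, a histone methyltransferase gene, read 2695 units in the hybrid and below 0 in CF-1, at least 14.7-fold, but its other probe set read 1026 and 923 units. Josd2, a deubiquitinase gene, read 1210 and 133 units, and its other probe set 1460 and 964 units. Samd10 read 2654 units in the hybrid and below 0 in CF-1, at least 14.4-fold, with the reverse order in the wild types, where the hybrid lay below 0 and CF-1 read 1024 units. An unnamed probe set on chip B read 4069 units in the hybrid and below 0 in the CF-1 cystic ovary, but between 2277 and 4094 units in the other 7 conditions.

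On the lower side, Gpd1, the cytosolic glycerol-3-phosphate dehydrogenase, lay below 0 in the hybrid and at 1529 units in CF-1, at least 5.26-fold lower, whereas the wild types read 1503 units in the hybrid and 1244 in CF-1. Ak1, an adenylate kinase, also lay below 0 in the hybrid and at 1074 units in CF-1. Crat, the carnitine acetyltransferase of mitochondria and peroxisomes, did not reach 3-fold but was the single gene at least 2-fold apart in the same direction on both chip types. It read 1087 units in the hybrid and 2344 in CF-1 on chip A, and 408 and 1103 units on chip B. The wild types of 2 months had the same order, at 1382 and 2728 units on chip A and 449 and 1130 on chip B. Those of 5 months did too, at 1253 and 2420 units on chip A and 212, under the floor, and 808 on chip B.

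Signalling and immune genes were also among the 53. Fgf15, a secreted fibroblast growth factor, stood at 114 units in the hybrid and 1209 in CF-1, at least 6.58-fold lower. Its order was not steady. The wild types of 2 months read 1184 units in the hybrid and 692 in CF-1, and those of 5 months below 0 and 1187 units. The luteoma read 1155 units and the tumour 430. Oprd1, the delta opioid receptor, stood at 193 and 1197 units, and its other probe set was lower too, at 262 and 667 units. The activation marker Cd83 of dendritic cells and lymphocytes stood at 443 units in the hybrid and 1685 in CF-1, while both wild types of 2 months read close to the hybrid, at 458 and 449 units. Ngp, a granule protein of neutrophil precursors, stood at 306 and 1340 units. Camp, another neutrophil granule gene, ran the other way at 1447 and 546 units, so the granule genes did not move together. The interferon-inducible gene Ifi202b stood at 116 units in the hybrid and 661 in CF-1.

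Others on the lower side were structural or of other roles. Krt17, a keratin of basal epithelium, stood at 192 units in the hybrid and 755 in CF-1, and its second probe set at 654 and 886 units. Lama3, a laminin chain of epithelial basement membrane, stood at 267 and 1071 units, and Capg, an actin capping protein of macrophages and epithelia, below 0 and at 990 units, though a second Capg probe set read 1051 and 1270 units. Dcpp1, a secretory protein gene of the reproductive tract and salivary gland, stood at 175 and 663 units, both below the wild types of 2 months, at 4005 in the hybrid and 2130 in CF-1. Cry1, a clock repressor, stood at 69.8 and 904 units, with a second probe set at 413 and 574 units. Hps4, Necap2, Nipsnap2, Inpp5j, Prcc, Miga2 and Gfra3 complete the 12 largest on this side with a gene symbol and both arrays above the floor. Their folds ran from 3.08 for Gfra3 to 5.20 for Hps4. In the hybrid, Hps4, Necap2, Inpp5j and Prcc read 201, 354, 236 and 192 units, under the detection limit of 2 floors. Of the same 12, Oprd1, Ngp and Krt17 also lay under that limit in the hybrid. Prcc had the reverse order in the wild types, at 716 units in the hybrid and 308 in CF-1.

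A second probe set was measured for 16 of the genes past 3-fold. It had the same sign for 14 of them and the opposite sign for Scgb1a1 and Prcc, but it reached 2-fold for Oprd1 alone. Genes measured on both chip types were compared as well. Of 179 genes measured on both, 105 had the same sign in the cystic pair and 70 opposite signs, and among 18 with 2-fold on either chip type 8 had the same sign. At 2-fold, 3.09% of all measured probe sets were higher and 3.89% lower in the hybrid cystic ovary, together 6.98%. Across these genes the difference on chip A correlated with that on chip B at r = 0.18, a description over genes of 2 array pairs. The same figure was 0.38 for the wild types of 2 months, 0.42 for those of 5 months and 0.61 for the luteoma against the tumour. Between these lesions 131 of the 179 genes had the same sign. Cdkn1a, a cyclin kinase inhibitor, was 2-fold apart in opposite directions, below 0 in the hybrid and 481 units in CF-1 on chip A, and 725 and 194 units on chip B. Single-probe-set differences of this size were thus seldom repeated by another probe set of the gene, and the cause was not tested.

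Which of the differences were already present without the transgene was read from the wild-type ovaries of 2 months, a separate pair of arrays of the same strains. In that pair 2.15% of all measured probe sets were at least 2-fold higher in the hybrid and 2.37% at least 2-fold lower. Of the 40 probe sets higher in the hybrid cystic ovary, 6 were at least 2-fold higher in the hybrid wild type, 28 lay within 1.5-fold, 4 lay between and 2 were at least 2-fold the other way. Of the 53 lower, the numbers were 10, 26, 12 and 5. The shares within 1.5-fold were thus 70% of the 40 and 49.1% of the 53, beside 85.5% of all measured probe sets. For 6 of the 28 and 1 of the 26, both wild types lay under the floor, so that no difference could show. Rln1 and Slpi were among those under the floor in both wild types. Fabp3, Hspg2, Hsd3b1, Gpd1, Ngp and Cd83 were among those measured and within 1.5-fold, and Ptgds, Purb, Nipsnap2, Inpp5j, Oprd1, Ak1 and Ifi202b among those in the same direction.

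**Figure D4:**
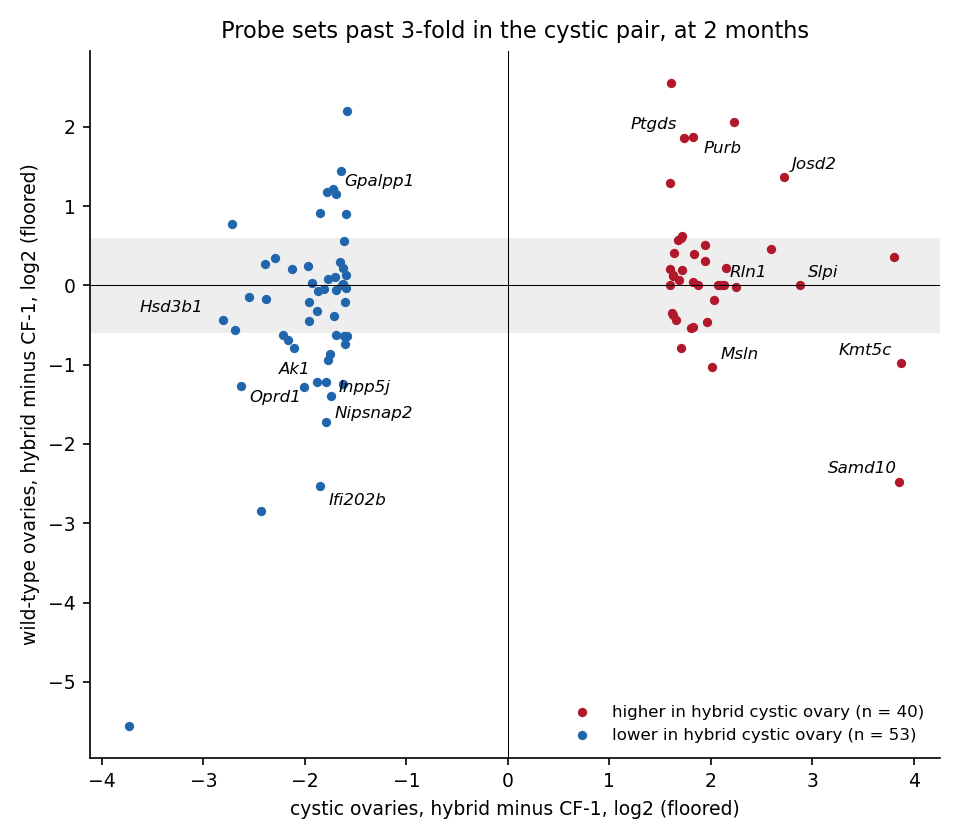
Hybrid minus CF-1 difference (log2, floored) in the cystic pair (horizontal) against that in the wild-type pair of 2 months (vertical) for the 93 probe sets past 3-fold, with the grey band marking 1.5-fold in the wild types. Of the red points 28 of 40 and of the blue points 26 of 53 fall within the band, beside 85.5% of all measured probe sets. The lowest point is an unnamed probe set at -3.73 and -5.55.

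A smaller set kept one direction in 3 strain pairs that share no array. Of 6408 measured probe sets, 27 differed at least 2-fold one way in the cystic pair and the wild types of 2 and 5 months. Among the 27, 15 were higher and 12 lower in the hybrid. In the wild types of 5 months, 7.51% of all measured probe sets were 2-fold higher and 6.71% 2-fold lower. Ifi202b, of a gene family that varies between laboratory strains, read 365 units in the hybrid and 2113 in CF-1 in the wild types of 2 months, and 383 and 2367 units at 5 months. Ccnd2, the D cyclin of proliferating granulosa cells, read 1446 units in the hybrid and 635 in CF-1 in the cystic pair, 1525 and 376 units in the wild types of 2 months, and 1882 and 337 units at 5 months. Between the lesions of 5 months Ccnd2 kept this order, at 1654 units in the luteoma and 1030 in the tumour, whereas Ifi202b had the reverse, at 334 units in the luteoma and 36.9, under the floor, in the tumour.

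Nipsnap2, a mitochondrial protein gene, read 823 units in the hybrid and 2845 in CF-1 in the cystic pair, with 748 and 2472 units in the wild types of 2 months and 92.6 and 736 units at 5 months. Ramp1, an accessory protein of the calcitonin-like receptors, and Dvl2, a Wnt signal transducer, were among the 15 that were higher. Ramp1 read 1607 units in the hybrid and 656 in CF-1, and Dvl2 1101 and 404 units. In the luteoma and the tumour of 5 months the direction held at 2-fold for 5 of the 27. These were Pop4, Acp1 and an unnamed probe set, all higher, and Ak1 and Inpp5k, both lower. Between these lesions 7.58% of all measured probe sets were at least 2-fold higher in the hybrid and 6.43% lower. Pop4, an RNA processing factor, read 532 units in the hybrid cystic ovary and 82.7 in the CF-1 cystic ovary, and lay under the floor in all CF-1 ovaries.

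The largest difference on the lower side was that of an unnamed probe set on chip B, at 1114 units in the hybrid cystic ovary and 14812 in the CF-1 cystic ovary. Its wild-type values were 95.0 and 13660 units at 2 months and 167 and 14551 units at 5 months, while the tumour read 1460 units and the luteoma 1796. Another unnamed probe set, on chip A, stood at 2735 and 14761 units, with 2105 and 15074 units in the wild types of 2 months. A pair of further unnamed probe sets were bright in the CF-1 cystic ovary, at 16432 and 14060 units against 5314 and 3491 in the hybrid. They were dimmer in the CF-1 wild type of 2 months, at 2527 and 1854 units, but read 11808 and 8311 units in that of 5 months. In the hybrid wild types they read 1066 and 760 units at 2 months and 2620 and 1711 units at 5 months. These 4 probe sets carry no gene name in the annotation used.

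The lesions of 5 months were compared in the same way. At 2-fold, 7.58% of all measured probe sets were higher in the luteoma than in the tumour and 6.43% were lower. Of the 40 probe sets higher in the hybrid cystic ovary, 7 were also higher in the luteoma at 2-fold and 5 were lower. Of the 53 that were lower, 9 were lower in the luteoma and 7 higher. By sign alone, 13 of the 40 and 23 of the 53 had the same order in the lesions, and 17 and 28 the reverse order. For the other 10 and 2 both lesions lay under the floor. Among all 6408 measured probe sets, 2916 were higher in the luteoma by sign and 3342 lower. Rln1 and Ptgds were among the 7 of the 40 that were also higher in the luteoma at 2-fold. Their luteoma minus tumour differences were at least 5.85 and at least 6.26, since the tumour lay under the floor for both. Inhba and Inhbb, the activin and inhibin beta subunit genes, differed by -2.95 and -3.85 between the lesions, but read 1977 and 1331 units in the hybrid cystic ovary and 1895 and 1190 in CF-1, differences of 0.06 and 0.16. Star and Ptgfr, the receptor of the luteolytic prostaglandin F2alpha, differed by 6.01 and 5.70 between the lesions and by 0.41 and -0.70 between the cystic ovaries.

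Across the gene lists, shifts were small. Among all 6408 measured probe sets, 3015 were higher in the hybrid cystic ovary by sign and 3298 lower. Granulosa genes had a median difference of 0.06 over 13 measured genes, 7 higher and 6 lower, beside -0.02 over all measured probe sets. Inha, the inhibin alpha subunit, stood at 25616 units in the hybrid and 15428 in CF-1, a difference of 0.73 that was 0.24 under quantile normalization. Gata4, a transcription factor of granulosa and theca cells, ran the other way, at 271 and 639 units. Wt1, a transcription factor of early follicles and surface epithelium, stood at 4027 and 4948 units, and Fst, the activin-binding protein follistatin, at 1119 and 890 units.

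Luteal and LH-response genes had a median of -0.10 over 11 genes, 4 higher and 7 lower. Ptgfr stood at 7675 units in the hybrid and 12511 in CF-1, and the efflux pump gene Abcb1b at 4657 and 8196 units. Fgfr1, a fibroblast growth factor receptor, stood at 1349 and 683 units. Among the 7 ovulatory genes, Runx1, a transcription factor induced by the LH surge, stood at 174 units in the hybrid and 494 in CF-1, and Vcan, the versican of the cumulus matrix, at 1413 and 2702 units. Adamts1, the protease that cleaves versican, stood at 702 and 449 units. No gene of these lists passed 3-fold, and Lhcgr, which encodes the LH receptor, was not measured.

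In the cholesterol list 3 of 11 genes were higher and 8 lower, with a median of -0.12. Ebp, a sterol isomerase, stood at 746 units in the hybrid and 1597 in CF-1, Dhcr7, the last enzyme of the pathway, at 3031 and 1973 units, and Hmgcs1, an early enzyme, at 15481 and 14164 units. Oocyte genes had 3 of 7 higher and a median of -0.13. The theca and interstitial list had a median of 0.18 over 5 genes, where Enpep, an aminopeptidase, stood at 772 and 1214 units. Wnt genes had 2 of 7 higher and TGF-beta, activin and BMP genes 2 of 8. In the latter the activin receptor gene Acvr2a stood at 344 units in the hybrid and 796 in CF-1.

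The extracellular matrix list, which holds neither Hspg2 nor Lama3, was lower in the hybrid for 23 of 29 measured genes, with a median of -0.24 that was -0.23 under quantile normalization. None of the 29 passed 3-fold, and 24 lay within 1.5-fold. Tnc, the matrix protein tenascin C, stood at 1075 units in the hybrid and 2476 in CF-1, Lum, the collagen-binding lumican, at 2152 and 3823 units, and Postn, the matricellular periostin, at 228 and 624 units. The same list had a median of -0.35 in the wild types of 2 months, where Tnc read 2299 units in the hybrid and 4031 in CF-1. In the wild types of 5 months its median was -0.02 and Tnc had the reverse order, at 4057 and 2748 units. Vessel genes were lower for 7 of 9, with a median of -0.24, and protease genes split 9 to 7 with a median of 0.02. Ctsk, the collagen-degrading cathepsin K, stood at 806 units in the hybrid and 307 in CF-1.

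**Figure D5:**
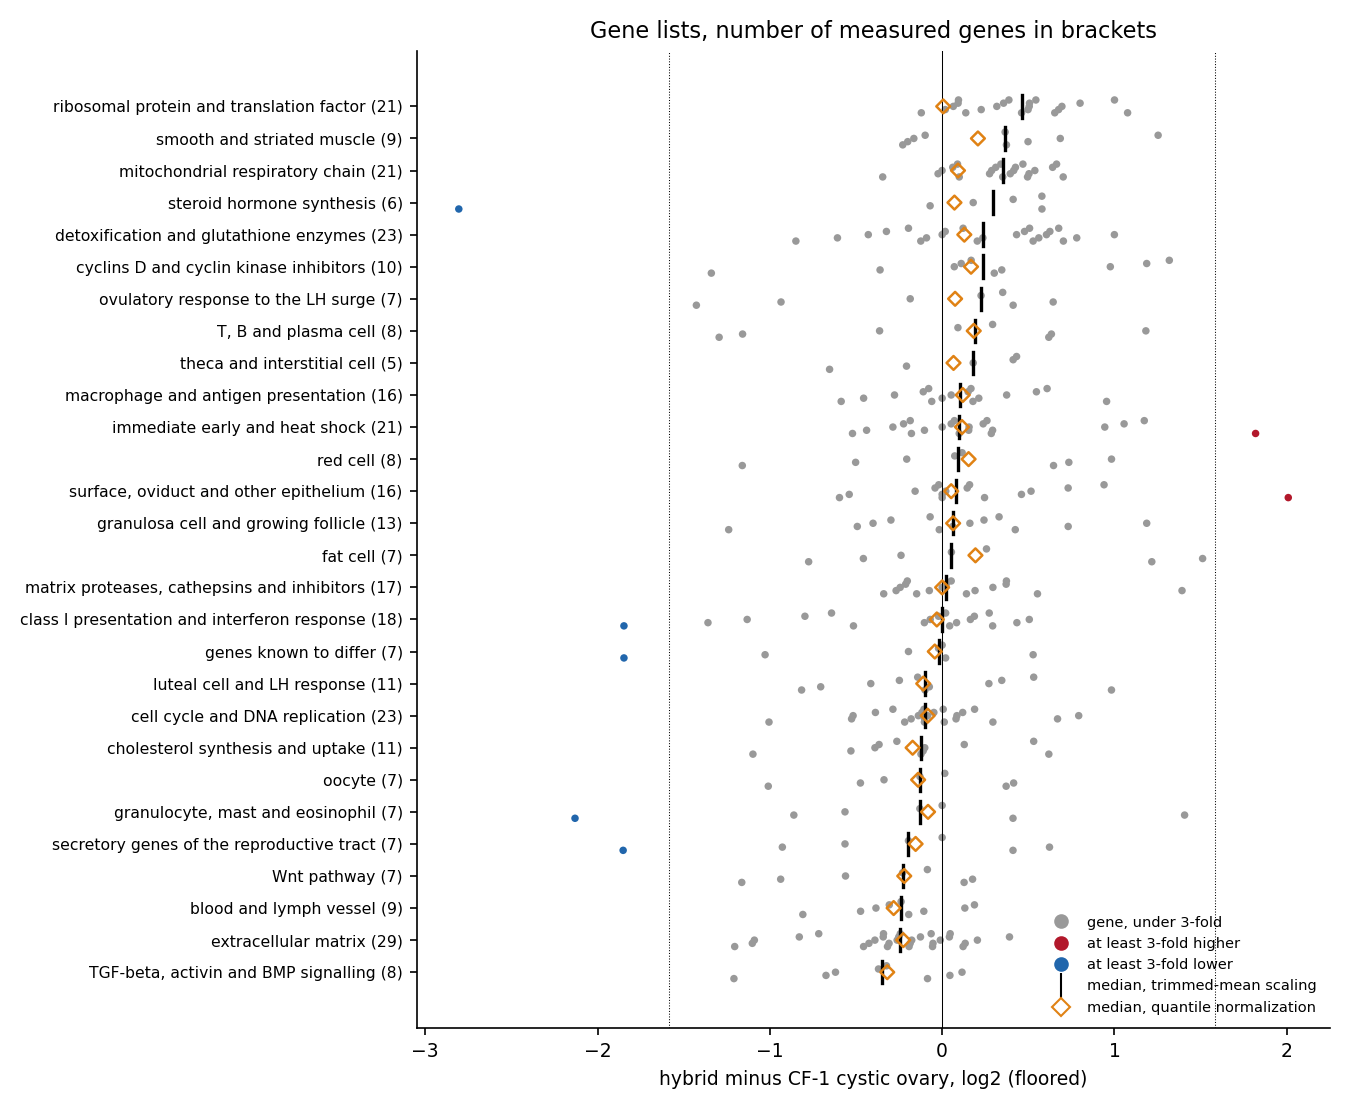
Hybrid minus CF-1 difference (horizontal, log2, floored) of each measured gene of 28 lists in the cystic pair, with the number of measured genes in brackets, the median as a black bar and the median under quantile normalization as a diamond. Ribosomal, respiratory chain and steroid synthesis medians of 0.46, 0.35 and 0.30 move to 0.01, 0.09 and 0.07, while the matrix median stays near -0.24. Quantile normalization shrinks shifts shared by bright probe sets by construction.

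Immune genes showed no common direction. Among 16 macrophage and antigen presentation genes 9 were higher and 6 lower, and the median was 0.10. H2-Aa and H2-Eb1, class II genes, stood at 2114 and 1635 units in the hybrid and 1386 and 1119 in CF-1, and their invariant chain gene Cd74 at 2743 and 2471 units. H2-Ea lay under the floor in both. Among 18 class I and interferon genes 9 were higher and 9 lower, and Ifi202b alone passed 3-fold. The interferon-induced GTPase gene Gbp2 stood at 852 units in the hybrid and 2187 in CF-1, with the same order in the wild types, 633 and 1542 units. Psmb10, an immunoproteasome subunit, stood at 473 and 1036 units. In the lymphocyte list, 5 of 8 genes were higher, although Cd3e, a T cell receptor chain, stood at 277 units in the hybrid and 680 in CF-1 and Igha, the immunoglobulin A heavy chain, at 130 and 410 units.

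Lists of other tissues showed no common direction either. The fat cell list had 4 of 7 genes higher and a median of 0.05, whereas in the wild types of 2 months its median was 1.32. Adipoq stood at 329 units in the hybrid and 317 in CF-1, and Fabp4 at 524 and 176 units, the last under the floor. Smooth and striated muscle genes had 5 of 9 higher and a median of 0.37, led by Des, the filament protein desmin, at 694 and 291 units, and Tagln at 9115 and 5667 units. Epithelial genes had 9 of 16 higher, with Msln past 3-fold and Krt8 at 1141 and 1174 units. Reproductive tract secretory genes had 2 of 7 higher, and Wfdc2, a secreted protease inhibitor of oviduct epithelium, stood at 1143 and 2174 units.

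Red cell genes had 5 of 8 higher and a median of 0.09. Hbb-b2 stood at 30496 units in the hybrid and 18318 in CF-1 and Hba-a1 at 47516 and 24040 units, differences of 0.74 and 0.98 that were 0.34 and 0.39 under quantile normalization. Alas2, the heme synthesis enzyme of red cell precursors, stood at 2443 and 1561 units. Both cystic ovaries were above the wild types of 2 months for Alas2, which read 485 units in the hybrid and 461 in CF-1.

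Ribosomal genes were higher in the hybrid for 20 of 21 and respiratory chain genes for 18 of 21, with medians of 0.46 and 0.35. Under quantile normalization these medians were 0.01 and 0.09, as for the other bright genes. Because that method takes out a shift shared by bright probe sets by construction, the smaller medians do not test the shift. Detoxification genes were higher for 15 of 23, with a median of 0.24 and 0.13 under quantile normalization, and Gstp1, a glutathione transferase, stood at 11925 and 5964 units. The immediate early and heat shock list was higher for 14 of 21, with a median of 0.10 and Cryab alone past 3-fold. Cyclins D and cyclin kinase inhibitors were higher for 8 of 10, with a median of 0.24. The 8 include Cdkn1a by its chip B probe set, while its chip A probe set ran the other way. In that list Ccnd1 stood at 588 units in the hybrid and 299 in CF-1, while Cdkn2a, an inhibitor of the CDK4 and CDK6 kinases, stood at 93.5 and 465 units.

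The list of genes known to vary between laboratory strains had 7 measured members. Nnt, the mitochondrial transhydrogenase gene that carries a deletion in some C57BL/6 lines, stood at 1484 units in the hybrid and 3026 in CF-1. It was lower in the hybrid in the other 3 pairs too, at 1978 and 2526 units in the wild types of 2 months, 1799 and 2835 units in those of 5 months, and 1449 in the luteoma against 2977 in the tumour. The class I genes H2-K1 and H2-D1 stood at 8698 and 6521 units in the hybrid and 8577 and 6617 in CF-1.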

How the data were processed

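The deposited values are intensities, 1 linear value per probe set and array, in part below 0. The sources used here do not give how the authors computed these intensity values. The members and gene lists were chosen with earlier results of these data known. Within each chip type, arrays were scaled to a common trimmed mean (2nd to 98th percentile of all probe sets), raised to a floor (per array the 25th percentile or, if larger, the size of the 5th, then the median over the arrays) and taken to log2, which understates differences of low probe sets. Control probe sets and those present on both chips were left out, 76 per chip. Symbols come from the platform annotation, updated through RefSeq (7544 of 7561 entries matched), and 4585 of the 6408 measured probe sets had 1 symbol. Lists use the measured probe set with the highest mean for each gene.

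Named genes are the 12 largest differences per side with both arrays above the floor, the 6 brightest per side with the other under it, list members past 3-fold or up to 4 beyond 1.5-fold, genes 2-fold alike on both chips, and a fixed set. Genes named outside this rule were chosen after their values were seen: the 3-strain-pair genes, Fdx1, Hsd17b1, H2-K1, H2-D1 and those beside the 3-fold limit. The size rule was run on simulated arrays with little noise, in which only bright probe sets were changed. That run cannot show how the rule behaves for changes near the floor. Python 3.11.15, pandas 2.3.3 and numpy 2.4.6 were used.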

Additional observations from a re-analysis of the deposited data

Results flagged for a closer look

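A set of 7 probe sets past 3-fold in the cystic pair stood at least 2-fold the other way in the wild-type pair of 2 months. With 1 array a side this difference between the pairs was not tested, and each of the 7 except Prcc had an array of the cystic or the wild-type pair under the floor. Samd10 differed by 3.85 (log2, hybrid minus CF-1) in the cystic and -2.48 in the wild-type pair, and Msln by 2.01 and -1.03. Gpalpp1 differed by -1.69 and 1.15, and Prcc by -1.72 and 1.22. The other 3 carry no gene name, at -1.59, -1.64 and -1.78 in the cystic pair and 2.20, 1.45 and 1.17 in the wild-type pair.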

How the results depend on the processing

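No paired analysis was possible because each condition has 1 array per chip type. Counts of probe sets past 3-fold in the cystic pair, 40 higher and 53 lower, moved little with quantile normalization (46 and 41), with scaling to the median of probe sets detected on all arrays (42 and 48) and with no filter (43 and 57). They moved by over 1.5 times without scaling (18 and 121), with the floor doubled (19 and 14), halved (129 and 164) or set to 20 units (609 and 744), at 2-fold (198 and 249) and at 4-fold (14 and 15). Detection on at least 5 of 9 arrays gave 24 higher and 45 lower, chip A alone 25 and 42, and chip B alone 15 and 11. In either direction, the wild-type pair of 2 months gave 62, that of 5 months 214 and the lesions 351. Those counts became 103, 813 and 369 without scaling, 30, 86 and 212 with the floor doubled, 172, 458 and 555 with it halved, and 1004, 1595 and 1260 with a floor of 20 units. Of 39 named probe sets past 3-fold, 37 stayed past it with quantile normalization, 23 without scaling and 21 with the floor doubled, and where measured none changed sign under the 8 alternatives of scaling, floor and filter. The floor thus sets how many low probe sets count, and intensities near it limit the folds.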
